A study of Homo sapiens with 8 samples.

Results

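The genes examined encode glutathione, thioredoxin and antioxidant proteins, 36 genes listed by name for their pathway, with earlier results of these data known. Of the 12235 genes with a value in at least 1 library, 34 were members. They were sorted into a glutathione group (15 genes), a thioredoxin-peroxiredoxin group (12 genes) and an iron, superoxide and NRF2 group (9 genes), and the 4 selenoproteins among them (GPX1, GPX4, TXNRD1 and TXNRD2) were also described apart.

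Ribosome profiling, the sequencing of the short mRNA fragments that ribosomes shield from nuclease, was performed on HEK293T, a human embryonic kidney line immortalized with SV40 large T antigen. After a night in growth medium, cells were switched to medium with every amino acid (Suff) or to the same medium without arginine (Arg-), leucine (Leu-) or methionine (Met-). Each of these 4 media was sampled in a series pre-treated with cycloheximide (CHX), a drug that stalls elongating ribosomes, and in a series without CHX, giving 8 libraries with 1 library per medium and series. All media held dialyzed serum and cysteine, so the supply of cysteine, the thiol of glutathione, was not removed in any group.

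No value below has a replicate error, and no test between conditions was made. The values are RPKM, the usual density of reads per length of coding sequence and per library size. Ratios are log2((RPKM + 1)/(RPKM in Suff + 1)), and an mRNA was counted as higher or lower at 2-fold or more if both libraries listed it and its RPKM averaged at least 10. The 95% intervals beside them cover the counting of reads only, and an interval on one side of 0 says nothing on how repeated cultures would vary. An RPKM mixes the amount of an mRNA with the ribosomes on each copy, which cannot be told apart here. It gives a share of all footprints per length of coding sequence rather than an absolute rate.

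Glutathione is made from cysteine by glutamate-cysteine ligase and glutathione synthetase, is used by peroxidases, transferases and glutaredoxins, and is returned to its reduced form by glutathione reductase. Thioredoxin carries electrons from NADPH through thioredoxin reductase to the peroxiredoxins, which break down hydrogen peroxide. The transcription factor NRF2 (NFE2L2) drives many of these genes and is held in check by KEAP1, and GPX1, GPX4 and the thioredoxin reductases carry selenocysteine, an amino acid inserted at a UGA codon that elsewhere stops translation.

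The coding sequence around these catalytic sites is shown for the members that the results turn on, read from GRCh38 along the coding strand, with the catalytic codons in capitals. For the selenoproteins the capitals are the selenocysteine codon, which sits early in GPX1 and GPX4 and next to the end in the thioredoxin reductases.
GPX1: gtggcgtccctcTGAggcaccacggtccgg
GPX4: gtggcctcccagTGAggcaagaccgaagta
TXNRD1: caggctggctgcTGAggttaa
TXNRD2: gtgacaggctgcTGAgggtaa
In GPX1 (chr3:49358132-49358134, minus strand, exon 1) the codon is residue 49 of 203, so 75.9% of the coding sequence lies after it. In GPX4 (chr19:1105403-1105405, plus strand, exon 3) it is residue 46 of 242, with 81.0% after it. In TXNRD1 (chr12:104348413-104348415, plus strand, exon 17) it is residue 648 of 649, and in TXNRD2 (chr22:19877111-19877113, minus strand, exon 17) residue 523 of 524. These residues are counted in the transcripts used without CHX, and GPX4 and TXNRD2 had other transcripts with CHX. Positions of footprints along the mRNAs were not analysed here, so reads before and after the UGA are summed in each value.

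For the thioredoxins and the glutaredoxin GLRX the capitals are the codons from the first to the second active-site cysteine, the pair that carries the electrons.
TXN: gccacgtggTGTGGGCCTTGCaaaatgatc
TXN2: gcacagtggTGTGGACCCTGCaagatcctg
GLRX: aagcccaccTGCCCGTACTGCaggagggcc
These are residues 32 to 35 of 105 in the cytosolic thioredoxin TXN (chr9:110251382-110251393, minus strand, exon 2), residues 90 to 93 of 166 in the mitochondrial TXN2 (chr22:36476841-36476852, minus strand, exon 3) and residues 23 to 26 of 106 in GLRX (chr5:95822585-95822596, minus strand, exon 1). TXN and TXN2 share the cysteine-glycine-proline-cysteine site, with different codons for glycine and proline only, and GLRX has proline and tyrosine between the cysteines.

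Reads on coding sequences ranged from 538222 (Met-) to 6434043 (Leu-) with CHX and from 1302523 (Met-) to 3139745 (Suff) without it. The libraries with CHX listed no transcript under 64 reads, and those without CHX none under 5, so Met- with CHX listed 2021 genes and 17 of the members, against 33 members in each library without CHX. With CHX the other media listed 26 (Suff), 29 (Arg-) and 32 (Leu-) members. An mRNA that was not listed was treated as bounded by the lowest listed read count, not as 0. Of the markers checked, VIM and NEFM were listed in 8 of 8 libraries, PAX2 in 2, and PTPRC, CD3E, ALB and HBB in none. KRT8 was listed in every library without CHX and in none with it, and KRT18 in all but Suff and Met- with CHX. The collagen gene COL1A1 was at 1.6 to 4.2 RPKM without CHX and at 20.2 in Suff with CHX.

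GCLC and GSS, the catalytic subunit of glutamate-cysteine ligase and glutathione synthetase, were matched to no listed transcript and are not analysed here. FTL was listed only with CHX, and TXNRD1 and PRDX2 only without it. Reads mapping to more than 1 place were left out of the deposited values, so members with near-identical copies in the genome, such as the ferritins and PRDX1, are uncertain.

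Antioxidant mRNAs took a smaller share of the summed RPKM in Arg- and Met- without CHX than in Suff, and a like share in Leu-. Because RPKM is already divided by coding length, this is not a share of footprints. The 33 listed members summed to 17988 RPKM in Suff, 9917 in Arg-, 16189 in Leu- and 11448 in Met-. This was 1.39%, 0.789%, 1.39% and 1.07% of the summed RPKM of all genes. TXN, PRDX1 and SOD1 were the 3 members with the highest RPKM in Suff without CHX, and were picked for that. They made up 45.5% of the members' sum in Suff, 27.7% in Arg-, 45.6% in Leu- and 32.9% in Met-. The other 30 members summed to 9799 RPKM in Suff, 7170 in Arg-, 8806 in Leu- and 7682 in Met-, so they too were lowest in Arg-. With CHX TXN, PRDX1 and SOD1 made up 47.3% in Suff, 43.5% in Arg-, 51.2% in Leu- and 30.7% in Met-, so Arg- was near Suff there. With CHX the listed members took 1.20% of the summed RPKM in Suff, Leu- and Met- and 0.789% in Arg-. These shares cover unlike sets and are not directly comparable. They sum 26 members of 5466 listed genes in Suff, 29 of 8031 in Arg-, 32 of 8906 in Leu- and 17 of 2021 in Met-.

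Without CHX no member was 2-fold higher in any starvation, and the members that reached 2-fold were lower. In Arg-, 4 of the 32 members that passed were lower (GLRX5, PRDX1, SOD1 and TXN), where 5.95% of all 7448 mRNAs were lower and 8.23% higher. In Leu-, 2 were lower (GLRX and HMOX1), against 2.06% lower and 6.85% higher of 7558 mRNAs. In Met-, 6 were lower (GLRX, GSTO1, MGST2, PRDX1, SOD1 and TXN), against 5.34% lower and 20.2% higher of 7884 mRNAs. The median log2 ratio of the members was -0.50 in Arg-, -0.09 in Leu- and -0.30 in Met-, beside -0.02, 0.14 and 0.32 over all mRNAs. In these comparisons 24, 24 and 27 of the 32 members lay below the median of all mRNAs.

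**Figure D1:**
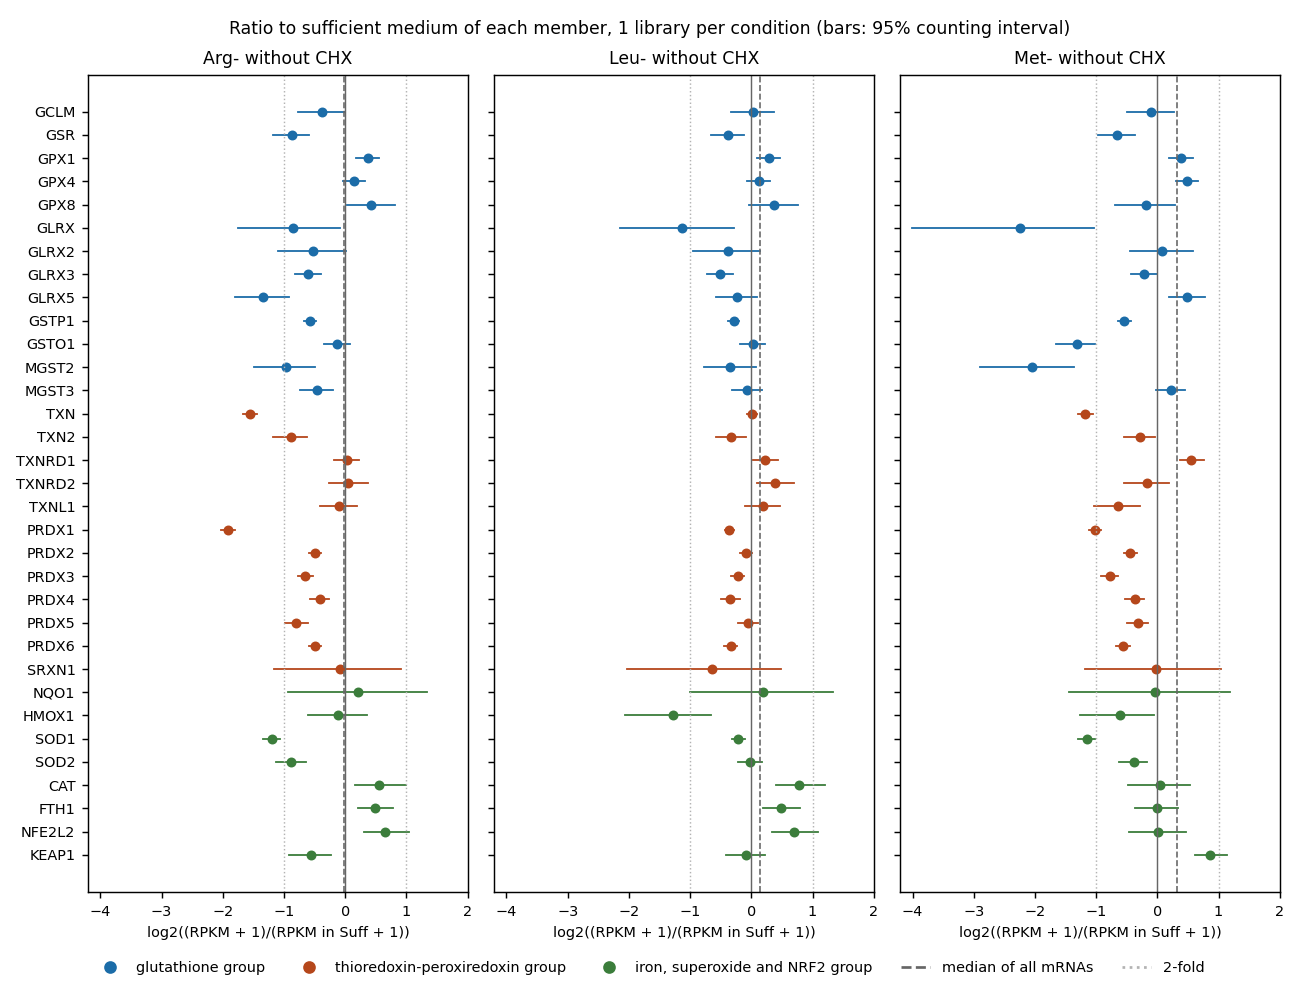
Log2 ratio to sufficient medium (horizontal axis) of 33 members (rows, NQO1 with a mean RPKM under 10 included) in the 3 starvations without CHX, 1 library per condition. Bars are 95% counting intervals, the dashed line is the median of all mRNAs and the dotted lines mark 2-fold. PRDX1 at -1.91 and TXN at -1.55 lie farthest left in Arg-, and GLRX at -2.25 and MGST2 at -2.04 in Met-, while no point lies right of the upper 2-fold line.

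The plot of the ratios without CHX shows the members grouped by role. Left of the median of all mRNAs lay 10, 9 and 11 of 12 thioredoxin-peroxiredoxin genes in Arg-, Leu- and Met-. The glutathione group had 10, 11 and 10 of 13 there, and the iron, superoxide and NRF2 group 4, 4 and 6 of 7. The median of the thioredoxin-peroxiredoxin group was -0.50 in Arg-, -0.16 in Leu- and -0.41 in Met-. The glutathione group was at -0.52, -0.23 and -0.19, and the iron, superoxide and NRF2 group at -0.11, -0.02 and -0.01.

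Members had short coding sequences, with a median of 657 nt beside 1200 to 1233 nt over all mRNAs, and short mRNAs as a whole were lower too. Among mRNAs with at most 1000 nt of coding sequence the median ratio without CHX was -0.26 in Arg-, -0.04 in Leu- and -0.07 in Met-, and 10.2%, 3.50% and 9.59% were at least 2-fold lower. The 25 members of that length had medians of -0.50, -0.21 and -0.39, with 4, 2 and 6 lower. Across the 32 members the rank correlation of ratio and coding length was 0.47 in Arg-, 0.34 in Leu- and 0.30 in Met-, given as a description of genes that share the same libraries. With CHX it was 0.11 (25 members), 0.10 (26) and 0.32 (16). The part of length in the members' ratios was not tested.

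Cytosolic thioredoxin, TXN, had the highest RPKM of the members in each library except Met- with CHX, where PRDX1 was first. Without CHX its level was 3802 RPKM in Suff, 1294 in Arg-, 3821 in Leu- and 1683 in Met-. The levels with CHX were 4696 in Suff, 2357 in Arg-, 4258 in Leu- and 401 in Met-. TXN was thus high in Suff and Leu- and low in Arg- and Met- in both series, but the order of Arg- and Met- differed between them. Without CHX the log2 ratio was -1.55 (counting interval -1.68 to -1.44) in Arg-, 0.01 (-0.07 to 0.09) in Leu- and -1.18 (-1.29 to -1.06) in Met-. The ratios with CHX were -0.99 in Arg-, -0.14 in Leu- and -3.55 (-3.92 to -3.20) in Met-, where TXN had 68 reads, close to the 64 of the lowest listed transcript. The TXN protein holds no arginine (0% of its 105 residues), while PRDX1, SOD1 and GLRX5 hold 3.02%, 2.60% and 4.46%. Over the members that passed, the rank correlation of the Arg- ratio with the share of arginine was 0.33 without CHX and -0.14 with it, as a description only.

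PRDX1, a cytosolic peroxiredoxin reduced by thioredoxin, was 2-fold lower in Arg- and Met- without CHX only. Its level there was 2697 RPKM in Suff, 717 in Arg-, 2104 in Leu- and 1326 in Met-, a ratio of -1.91 (-2.03 to -1.80) in Arg- and -1.02 (-1.12 to -0.93) in Met-. In the other series it was 1450 in Suff, 1082 in Arg-, 2327 in Leu- and 1964 in Met-, a Met- ratio of 0.44. The median of all mRNAs in Met- was 0.32 without CHX and 0.89 with it, and relative to it PRDX1 was at -1.34 and -0.45. The Suff level itself differed between the series, and CHX and the processing of the series cannot be told apart.

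All 6 peroxiredoxins had a ratio below 0 in each starvation without CHX, where 51.4% (Arg-), 39% (Leu-) and 34.4% (Met-) of all mRNAs did. They have different homes, PRDX1, PRDX2 and PRDX6 mainly in the cytosol, PRDX3 and PRDX5 in mitochondria and PRDX4 in the endoplasmic reticulum. In Arg- the ratios ran from -1.91 (PRDX1) to -0.42 (PRDX4), in Leu- from -0.36 (PRDX1) to -0.05 (PRDX5) and in Met- from -1.02 (PRDX1) to -0.32 (PRDX5). PRDX1 was the only one past 2-fold. In Leu- the counting intervals of PRDX2 (-0.18 to 0.003) and PRDX5 (-0.21 to 0.11) spanned 0. PRDX2, listed without CHX alone, was at 1591 RPKM in Suff, 1127 in Arg-, 1495 in Leu- and 1173 in Met-. With CHX 5 of 5 listed members were below 0 in Arg- (PRDX4 and PRDX5 past 2-fold) and 2 of 5 in Leu- and in Met-. Against the median of all mRNAs, 4 of 5 were below it in Arg-, 3 in Leu- and 5 in Met-. PRDX3 with CHX was at 1353 RPKM in Suff, 993 in Arg-, 949 in Leu- and 310 in Met-, a Met- ratio of -2.12 (-2.40 to -1.87) against -0.77 without CHX.

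The plot of levels by library sets TXN beside PRDX1, SOD1, GLRX5, GSTO1 and KEAP1, whose patterns over the 4 media differ from one another.

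**Figure D2:**
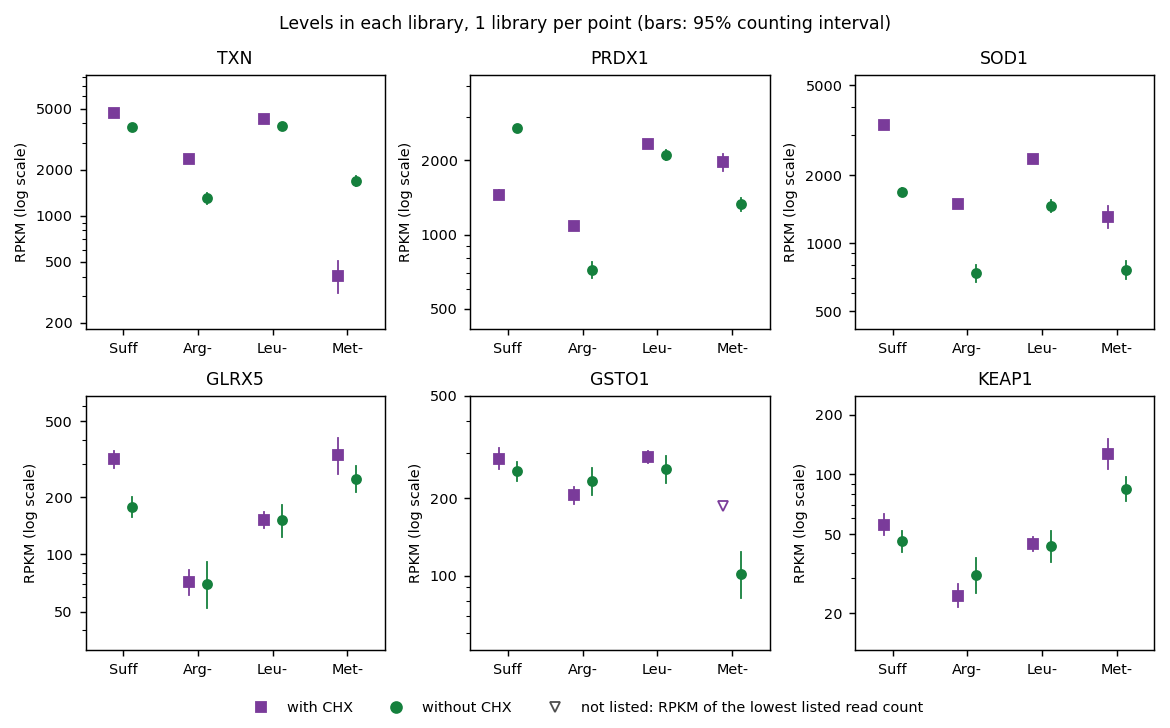
RPKM (log scale) of 6 members in each library, with CHX (squares) and without CHX (circles), 1 library per point; bars are 95% counting intervals and the open triangle marks the RPKM of the lowest listed read count where the mRNA was not listed. SOD1 was lower in Arg- and Met- than in Suff in both series, GLRX5 was lowest in Arg- in both, and KEAP1 without CHX was highest in Met-.

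The reductase TXNRD1 and the relatives of thioredoxin had patterns of their own in part, and TXN2 was lowest in Arg- as TXN was without CHX. TXNRD1, the cytosolic reductase, was at 95.7 RPKM in Suff, 97.4 in Arg-, 112 in Leu- and 141 in Met- without CHX. Its Met- ratio was 0.56 (0.37 to 0.75), beside a median of 0.32 over all mRNAs. TXNL1, a thioredoxin-like protein of the proteasome, was at 108 RPKM in Suff, 101 in Arg-, 124 in Leu- and 68.8 in Met-, a Met- ratio of -0.65. SRXN1, which repairs over-oxidized peroxiredoxins, stood at 20.8, 19.5, 12.9 and 20.4 RPKM without CHX, with intervals that spanned 0 in all 3 starvations. With CHX SRXN1 was at 151 RPKM in Suff and 58.6 in Leu- (ratio -1.35) and was not listed in Arg- or Met-, which made it at least 4.86-fold lower in Arg-. TXN2, the mitochondrial thioredoxin, was at 320 RPKM in Suff, 172 in Arg-, 253 in Leu- and 262 in Met- without CHX and at 416, 201, 257 and 250 with it. Its ratio was below 0 in all 6 comparisons, from -1.05 (Arg- with CHX) to -0.29 (Met- without CHX).

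SOD1, the copper-zinc superoxide dismutase of the cytosol, was lower in Arg- and in Met- in both series. Without CHX its level was 1690 RPKM in Suff, 736 in Arg-, 1457 in Leu- and 758 in Met-. With CHX its level was 3326, 1494, 2361 and 1303 RPKM. The ratio was -1.20 (-1.34 to -1.07) and -1.15 (-1.22 to -1.09) in Arg- without and with CHX, and -1.16 (-1.30 to -1.01) and -1.35 (-1.52 to -1.19) in Met-. Arg- and Met- could not be placed in order without CHX, with 0.04 (-0.14 to 0.22) between them. The mitochondrial SOD2 was at 322 RPKM in Suff, 174 in Arg-, 317 in Leu- and 246 in Met-, so its ratios of -0.88 in Arg- and -0.39 in Met- were smaller than those of SOD1. With CHX SOD2 was at 383, 246 and 392 RPKM in Suff, Arg- and Leu- and at least 2.14-fold lower in Met-, where it was not listed. CAT, the catalase of peroxisomes, went the other way in Arg- and Leu-, with 23.1 RPKM in Suff, 34.5 in Arg-, 40.5 in Leu- and 23.7 in Met- without CHX. Its ratio was 0.56 (0.16 to 0.99) in Arg- and 0.78 (0.40 to 1.21) in Leu-. With CHX CAT was not listed in Suff and was at 38.0 RPKM in Arg- and 35.1 in Leu-, at least 2.40-fold and 2.22-fold higher.

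In the glutathione group, GCLM and GSR, the only genes of synthesis and recycling with a value, changed less than 2-fold without CHX. So did most of all mRNAs. Of these, 8.23% were higher and 5.95% lower in Arg-, 6.85% and 2.06% in Leu-, and 20.2% and 5.34% in Met-. GCLM, the modifier subunit of glutamate-cysteine ligase, was at 80.3 RPKM in Suff, 61.7 in Arg-, 81.8 in Leu- and 74.4 in Met-. With CHX it was at 91.7, 45.2 and 52.4 RPKM in Suff, Arg- and Leu-, an Arg- ratio of -1.01 (-1.32 to -0.72), and was not listed in Met-. GSR, the glutathione reductase, was at 89.7 RPKM in Suff, 48.7 in Arg-, 68.6 in Leu- and 56.8 in Met-, and its ratio was below 0 in each, with -0.87 (-1.18 to -0.59) in Arg-. With CHX GSR was at 101, 60.9 and 93.0 RPKM and at least 1.33-fold lower in Met-.

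The glutaredoxins, which reduce disulfides with glutathione or handle iron-sulfur clusters, differed among themselves. GLRX5, the mitochondrial iron-sulfur member, was at 177 RPKM in Suff, 69.4 in Arg-, 151 in Leu- and 249 in Met- without CHX and at 315, 71.2, 152 and 331 with it. It was lowest in Arg- in both series, and highest in Met- without CHX, while Met- and Suff with CHX lay within counting error (0.07, -0.29 to 0.42). The GLRX5 ratio in Met- without CHX was 0.49 (0.20 to 0.78), beside a median of 0.32 over all mRNAs. Its Arg- ratio was -1.34 (-1.81 to -0.92) without CHX and -2.13 (-2.42 to -1.88) with it, and without CHX Met- stood 1.83 (1.39 to 2.32) above Arg- on the log2 scale. GLRX, the cytosolic member, was at 60.5 RPKM in Suff, 32.9 in Arg-, 27.1 in Leu- and 12 in Met-, from 61, 17, 13 and 5 reads. Its ratios of -1.13 (-2.15 to -0.28) in Leu- and -2.25 (-4.01 to -1.04) in Met- rest on those few reads, and 5 is the lowest count listed. With CHX GLRX was listed in Arg- (42.7 RPKM) and Leu- (42.0 RPKM) only. GLRX2 and GLRX3 changed less than 2-fold without CHX, and the GLRX2 ratio of 2.21 in Met- with CHX compares different transcripts and was 1.47 over summed transcripts.

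Of the glutathione transferases, GSTO1 and MGST2 were lower in Met-. GSTO1, of the omega class, was at 254 RPKM in Suff, 233 in Arg-, 259 in Leu- and 102 in Met- without CHX, so it was low in Met- alone. Its Met- ratio was -1.32 (-1.65 to -1.01) to Suff and -1.34 (-1.70 to -1.01) to Leu-. With CHX GSTO1 was at 285, 205 and 289 RPKM in Suff, Arg- and Leu- and at least 1.53-fold lower in Met-. MGST2, a microsomal transferase of the leukotriene pathway, was at 124 RPKM in Suff, 62.9 in Arg-, 97.8 in Leu- and 29.4 in Met- without CHX, a Met- ratio of -2.04 (-2.89 to -1.36). With CHX it was at 70.9, 99.1 and 95.2 RPKM, so its Arg- ratio was -0.97 without CHX and 0.48 with it. MGST3 did not share this pattern, with 280, 203, 268 and 326 RPKM. GSTP1, the abundant pi-class enzyme, was at 1684 RPKM in Suff, 1132 in Arg-, 1379 in Leu- and 1160 in Met- without CHX and lower than in Suff in all 6 comparisons, from -1.39 (Arg- with CHX) to -0.29 (Leu- without CHX).

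Without CHX 0 of the 4 selenoproteins reached 2-fold in either direction, nor did most of all mRNAs. Of all mRNAs, 8.23% were higher and 5.95% lower in Arg-, 6.85% and 2.06% in Leu-, and 20.2% and 5.34% in Met-. The median ratio of the 4 selenoproteins was 0.10 in Arg-, 0.26 in Leu- and 0.43 in Met-, beside -0.02, 0.14 and 0.32 over all mRNAs. GPX1, the cytosolic glutathione peroxidase, was at 311 RPKM in Suff, 401 in Arg-, 379 in Leu- and 406 in Met-. Its ratio was 0.36 (0.18 to 0.55), 0.28 (0.09 to 0.48) and 0.38 (0.19 to 0.58). GPX4, which reduces lipid peroxides, was at 305, 338, 332 and 425 RPKM, with a Met- ratio of 0.48 (0.30 to 0.66). TXNRD2, the mitochondrial thioredoxin reductase, was at 46.7, 48.5, 61.5 and 41.4 RPKM, with intervals that spanned 0 in Arg- and Met-. Neither the peroxidases, whose UGA lies early in the sequences above, nor the reductases, whose UGA lies at the end, had a ratio under -0.17 without CHX.

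With CHX the selenoproteins did not behave alike. GPX1 was at 414 RPKM in Suff, 228 in Arg-, 354 in Leu- and 882 in Met-, a ratio of -0.86 in Arg- and 1.09 (0.88 to 1.29) in Met-, where the median of all mRNAs was 0.89 and GPX1 relative to it 0.20, short of 2-fold. TXNRD2 was at 21.9, 46.9, 58.4 and 91.2 RPKM, with ratios of 1.07 (0.76 to 1.45), 1.38 (1.09 to 1.76) and 2.01 (1.60 to 2.52). These ratios share a Suff value of 88 reads, close to the 64 of the lowest listed transcript. GPX4 was listed only in Leu- (22.6 RPKM) and Met- (289 RPKM), at least 6.84-fold higher in Met- than in Suff. Its transcript with CHX (591 nt of coding sequence) was not the one used without CHX (729 nt), so its levels cannot be compared between the series. TXNRD2 also had different transcripts in the 2 series. In Met- with CHX an mRNA of their lengths was listed only from 201 RPKM (GPX4) and 75.8 RPKM (TXNRD2), above their levels in the other libraries with CHX, so once listed both had to be highest there. The plot of the selenoproteins by library shows this difference between the series. GPX8, a peroxidase of the endoplasmic reticulum that holds cysteine in place of selenocysteine, was at 69.8, 93.6, 90.1 and 60.9 RPKM without CHX and at least 2.47-fold (Arg-) and 2.53-fold (Leu-) higher with it. The GPX8 transcripts differed too, with 630 nt of coding sequence without CHX and 270 nt with it.

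**Figure D3:**
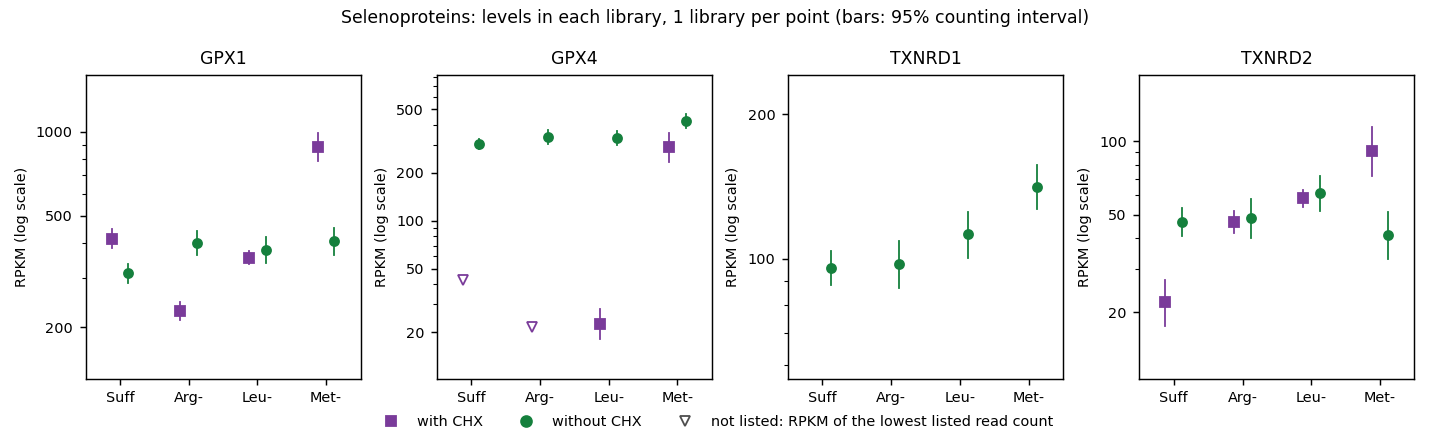
RPKM (log scale) of the 4 selenoproteins in each library, with CHX (squares) and without CHX (circles), 1 library per point; bars are 95% counting intervals and open triangles mark the RPKM of the lowest listed read count where the mRNA was not listed. Without CHX, GPX1 stayed between 311 and 406 RPKM and TXNRD1 between 95.7 and 141, whereas with CHX GPX1 ran from 228 to 882. GPX4 and TXNRD2 with CHX could be listed in Met- only from 201 and 75.8 RPKM, above their levels in the other media.

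NFE2L2 and its partner KEAP1 showed different patterns over the media. NFE2L2 was at 24.0 RPKM in Suff, 38.2 in Arg-, 39.3 in Leu- and 24.1 in Met- without CHX, with a ratio of 0.65 (0.30 to 1.04) in Arg-, 0.69 (0.33 to 1.09) in Leu- and 0.00 in Met-. With CHX it was listed in Arg- (33.8 RPKM) and Leu- (33.5 RPKM) only, at least 2.45-fold and 2.43-fold higher than in Suff. KEAP1, the adaptor that marks NRF2 for destruction, was at 46.2 RPKM in Suff, 31.1 in Arg-, 43.5 in Leu- and 84.8 in Met- without CHX and at 55.9, 24.5, 44.7 and 127 with it. KEAP1 was lowest in Arg- and highest in Met- without CHX. Its Met- ratio there was 0.86 (0.61 to 1.14), beside a median of 0.32 over all mRNAs. With CHX the Met- ratio was 1.17 (0.87 to 1.49), or 0.28 relative to the median of all mRNAs, and KEAP1 could be listed in Met- only from 63.5 RPKM, above its level in the other media. In Arg- its ratio was -0.56 (-0.92 to -0.23) and -1.16 (-1.45 to -0.93).

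The other members of this group, among them targets of NRF2, shared no direction. HMOX1, the inducible haem oxygenase, was at 42.6 RPKM in Suff, 39.4 in Arg-, 17.0 in Leu- and 27.5 in Met- without CHX, from 116, 55, 22 and 31 reads. Its Leu- ratio was -1.28 (-2.06 to -0.66) without CHX and -1.51 (-1.92 to -1.19) with it, where it was at 63.3 RPKM in Suff, 21.3 in Arg- and 21.6 in Leu-. In Arg- the series differed, with -0.11 without CHX and -1.53 with it. NQO1, a quinone reductase, was at 7.7, 9.0, 8.9 and 7.4 RPKM without CHX and so fell under the minimum of 10, and with CHX it was listed in Leu- alone (15.3 RPKM). FTH1, the heavy chain of the iron store ferritin, was at 137 RPKM in Suff, 193 in Arg-, 194 in Leu- and 136 in Met- without CHX, a ratio of 0.49 (0.20 to 0.78) in Arg- and 0.49 (0.20 to 0.79) in Leu-. With CHX FTH1 was at 114, 192 and 140 RPKM in Suff, Arg- and Leu- and was not listed in Met-. The light chain FTL was at 104, 83.6, 45.9 and 492 RPKM with CHX, a ratio of -1.17 in Leu- and 2.23 (1.89 to 2.59) in Met-.

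With CHX a larger share of the members, and of all listed mRNAs, passed 2-fold. In Arg-, 10 of 25 members were lower (GCLM, GLRX5, GSTP1, HMOX1, KEAP1, MGST3, PRDX4, PRDX5, SOD1 and TXN2) and 1 higher (TXNRD2), against 19.7% lower and 16.6% higher of 5074 mRNAs. In Leu-, 4 of 26 were lower (FTL, GLRX5, HMOX1 and SRXN1) and 1 higher (TXNRD2), against 7.28% and 12.1% of 5208. In Met-, 3 of 16 were lower (PRDX3, SOD1 and TXN) and 5 higher (FTL, GLRX2, GPX1, KEAP1 and TXNRD2), against 9.79% and 46.7% of 1890. The members' medians were -0.72, -0.26 and 0.10, beside -0.23, 0.02 and 0.89 over all mRNAs, and 20, 19 and 11 members lay below that median. Centred on the median of all mRNAs, 3 members in place of 10 were lower in Arg- and 7 in place of 3 in Met-. Since Met- with CHX listed only mRNAs with 64 reads or more, the members there passed largely for being high, and their count says little on the other 20. Of the 5 higher in Met-, FTL, GLRX2, KEAP1 and TXNRD2 could be listed there only above their level in Suff.

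Set side by side, the series shared few 2-fold calls among the members. GLRX5 and SOD1 were lower in Arg- in both series, 2 of the 24 members that passed in both, where 3.84% of 4765 mRNAs were lower in both. Centred on the median of all mRNAs, SOD1 in Arg- with CHX was at -0.92 and only GLRX5 was left. HMOX1 was the 1 of 25 in Leu- (1.31% of 4871 mRNAs), and SOD1 and TXN the 2 of 15 in Met- (2.89% of 1797 mRNAs). No member was higher in both series, where 2.6% (Arg-), 2.09% (Leu-) and 10.2% (Met-) of all mRNAs were. Among the members that passed in both, none was 2-fold higher in one series and 2-fold lower in the other. Few could be, since no member was 2-fold higher without CHX and 1 (Arg-), 1 (Leu-) and 5 (Met-) were with it. The same share over all mRNAs was not counted.

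**Figure D4:**
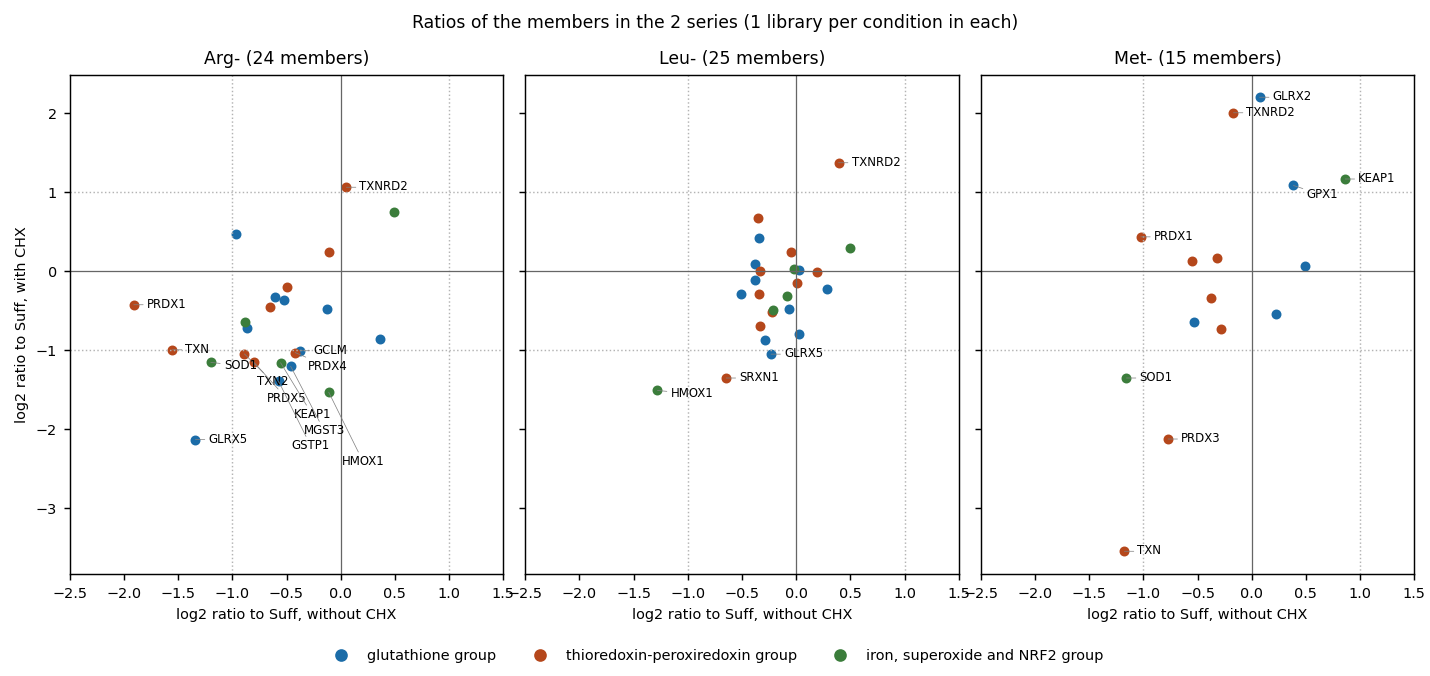
Log2 ratio to sufficient medium of the members without CHX (horizontal axis) and with CHX (vertical axis) in the 3 starvations; 1 point per member that passed in both series, dotted lines at 2-fold, and names for members past 2-fold in either. GLRX5 and SOD1 (Arg-), HMOX1 (Leu-) and SOD1 and TXN (Met-) lie in the lower left corners, and no point lies above the upper 2-fold line on both axes.

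The plot of the ratios in the 2 series shows more spread with CHX than without it, most of all in Met-. Leu- kept 21 of 26 members within 2-fold with CHX and 30 of 32 without it, as it did most of all mRNAs. Of all mRNAs in Leu-, 12.1% were higher and 7.28% lower with CHX, and 6.85% and 2.06% without it.

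The members were also set beside 123 other genes of the same pathways, listed by function. Without CHX 11 of the 95 that passed were higher and 8 lower in Arg-, 11 and 3 of 95 in Leu-, and 14 and 10 of 92 in Met-, beside 8.23% higher and 5.95% lower of all mRNAs in Arg-, 6.85% and 2.06% in Leu-, and 20.2% and 5.34% in Met-. In the list of cystine supply and glutathione turnover, 3 of 11 were higher in Arg- and in Leu- (SLC3A2, SLC7A11 and CTH), and in Met- 5 were higher (ABCC1 and LANCL1 with them) and 2 lower (ESD and GLO1). SLC3A2, the heavy chain of the cystine-glutamate exchanger, was at 89.4 RPKM in Suff, 397 in Arg-, 345 in Leu- and 406 in Met- without CHX, with ratios of 2.14, 1.94 and 2.17. With CHX its ratios were 3.08, 2.21 and 4.62.

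Its partner SLC7A11, the light chain, was at 9.5, 102, 93.6 and 81.6 RPKM without CHX, a ratio of 3.29 (2.96 to 3.91), 3.17 (2.83 to 3.80) and 2.97 (2.61 to 3.61). CTH, which releases cysteine from cystathionine, was at 17.3, 231, 141 and 78.2 RPKM. TXNIP, the inhibitory partner of thioredoxin, was at 8.7, 75.5, 84.1 and 129 RPKM, so it was high where TXN was low (Arg- and Met-) and also where TXN was not (Leu-). SLC7A11, CTH and TXNIP were not listed in Suff with CHX and were chosen after their values were seen. SESN2, a stress-induced regulator of mTORC1, was at 53.4 RPKM in Suff, 237 in Arg-, 236 in Leu- and 187 in Met-, and its ratios of 2.13, 2.12 and 1.79 without CHX and 2.92, 2.90 and 3.91 with it were past 2-fold in all 6 comparisons.

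The wider list also held genes that were lower in both series. MSRB1, a selenoprotein that repairs oxidized methionine, had ratios of -1.40 without and -1.77 with CHX in Arg- and of -1.13 and -1.22 in Leu-. The thioredoxin-like TXNDC17 (-1.30 and -1.74) and TXNDC12 (-1.43 and -1.24) were lower in Arg-, beside TXN at -1.55 and -0.99. TFRC, the transferrin receptor that brings iron into cells, was lower in Leu- (-1.49 and -1.27). Of the other selenoproteins, 13 passed without CHX in Arg-, with TXNRD3 higher and MSRB1 lower. With CHX 5 of 8 were lower in Arg- (MSRB1, SELENOF, SELENON, SELENOT and SEPHS2), where 19.7% of all mRNAs were. The median of these 8 was -1.13, beside -0.23 over all mRNAs. In Leu- with CHX 2 of 8 were lower (7.28% of all mRNAs). In Met- with CHX 0 of 6 were lower (9.79%) and 1 was higher (46.7%). Without CHX 1 of 13 was lower in Leu- and 0 of 12 in Met-.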

How the data were processed

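Ribosome footprints of 8 HEK293T libraries were analysed, grouped by the labels. The values deposited by the authors are RPKM per Ensembl transcript on GRCh38. According to the study's methods, adaptors were cut, reads trimmed with Trimmomatic, aligned to the transcriptome with Bowtie without mismatches, and unique alignments kept; the submitters' processing notes also name cutadapt. Duplicates appear to have been removed without CHX, which the methods do not state, so CHX and processing cannot be told apart. Transcripts were matched to GENCODE release 44 (96.7% to 97.1% found) and the highest transcript per gene and library was used. Reads were recovered from whole steps of RPKM times coding length (97.1% to 97.4% of values within 0.01 of a step); GSTP1 was not whole and its interval uses estimated reads. Intervals of ratios are exact (Clopper-Pearson, 95%) and use reads without the pseudocount, so for low mRNAs the printed ratio can lie off their centre. Intervals of levels are exact Poisson (chi-square, 95%). Both cover counting error only and take each read as an independent molecule, so where PCR copies were kept they are too narrow. A pseudocount of 1 was used, which understates changes of low mRNAs. Bounds ("at least N-fold") are plain RPKM ratios against the lowest listed read count. Levels in every library were to be printed for members past 2-fold in both series or without CHX, the selenoproteins and 16 members fixed by role. Pathway genes were to be named, up to 10, by mean change among those past 2-fold in both series. The members and lists were chosen with earlier results of these data known. The alternatives were another pseudocount (0.1), no minimum or a minimum of 50 RPKM, summed transcripts, a fixed transcript, unlisted mRNAs as 0, selection on Suff alone, centring, and a minimum of 64 reads. The scripts ran in Python 3.11.15 (with pandas 2.3.3, scipy 1.17.1, numpy 2.4.6 and matplotlib 3.10.9) and were tested on simulated data.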

Additional observations from a re-analysis of the deposited data

How the results depend on the processing

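Over 9 alternatives, 189 medians and counts of the members stayed within the margin set (1.5-fold for counts), 18 moved and none reversed. At a minimum mean RPKM of 50, 0 members were higher in Arg- and Leu- with CHX, and 0 were lower in Leu- without CHX or in both series. With unlisted mRNAs counted as 0, 5 were higher in Arg- and 6 in Leu- with CHX, 13 were lower in Met- with CHX and 4 in Met- in both series. Selected on Suff alone, 0 were higher in Arg-, Leu- or Met- with CHX, where 7 members were left in Met-. Centred on the median of all mRNAs, the median of the members in Met- was -0.79 with CHX and -0.62 without it; with CHX 3 members were lower in Arg-, and in Met- 3 were higher and 7 lower; 1 was lower in Arg- in both series. With at least 64 reads, 1 was lower in Leu- without CHX. Of the single ratios, 58 moved under centring and 2 (GLRX2) under summed transcripts. With 1 library per medium and series no replicate could be left out, and a fit over the media with series as a block was not run, since the series differ in CHX and processing. Depth limits Met- with CHX most, at 538222 reads.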
